A study of Mus musculus with 15 samples.

Results

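The X-linked miRNA cluster of miR-322, miR-503, miR-351, miR-542 and miR-450 was followed through every sample of a TaqMan array study of mouse pancreatic endocrine cell lines. Its members were taken by name, as every assay for miR-322, miR-503, miR-351, miR-542, miR-450a or miR-450b of any arm, which gave 12 of 584 miRNA assays, 10 of them designed for mouse and 2 for rat miRNAs (mmu- and rno-). The cluster was chosen by the change of mmu-miR-351 in αTC1-6 at 48 h post treatment (PT) with cytokines, so values of that contrast are descriptions here and carry no test. αTC1-6 is a mouse glucagonoma cell line and βTC1 a mouse insulinoma cell line, both tumour-derived models used at passages 20 to 40. There were 3 replicates of each of 5 conditions: untreated αTC1-6 at 24 h, αTC1-6 after 24 h of cytokines, untreated αTC1-6 at 48 h, αTC1-6 after 48 h of cytokines, and untreated βTC1 at 24 h. The cytokines were IL-1β (50 IU/ml), IFN-γ (1000 IU/ml) and TNF-α (1000 IU/ml), given together, and no βTC1 sample was treated. Steady state means the untreated cells of both lines at 24 h.

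MiRNAs are short RNAs that are cut from a hairpin precursor and guide the repression of mRNAs that pair with them, chiefly through the seed, bases 2 to 8 of the mature miRNA. A hairpin can give a mature miRNA from each of its arms, named 5p and 3p, and the older names mark the less abundant arm with an asterisk. MiRNAs that lie close together on one strand are often cut from one primary transcript, although their mature levels can still differ. MiR-322 and miR-503, relatives of the miR-15 and miR-16 family, are known for slowing the cell cycle and for roles in muscle differentiation.

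In GRCm38.p6 the 7 hairpins lie on the minus strand of chromosome X within 6353 bp (chrX:53047997-53054349). In the direction of transcription they are Mir322 (chrX:53054255-53054349), Mir503 (chrX:53053984-53054054), Mir351 (chrX:53053255-53053353), Mir542 (chrX:53049403-53049487), Mir450-2 (chrX:53048299-53048367), Mir450-1 (chrX:53048154-53048244) and Mir450b (chrX:53047997-53048078). Mir322, Mir503 and Mir351 fall inside the lncRNA gene C430049B03Rik (chrX:53053112-53057190), and the other 4 hairpins lie downstream of it.

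**Figure D1:**
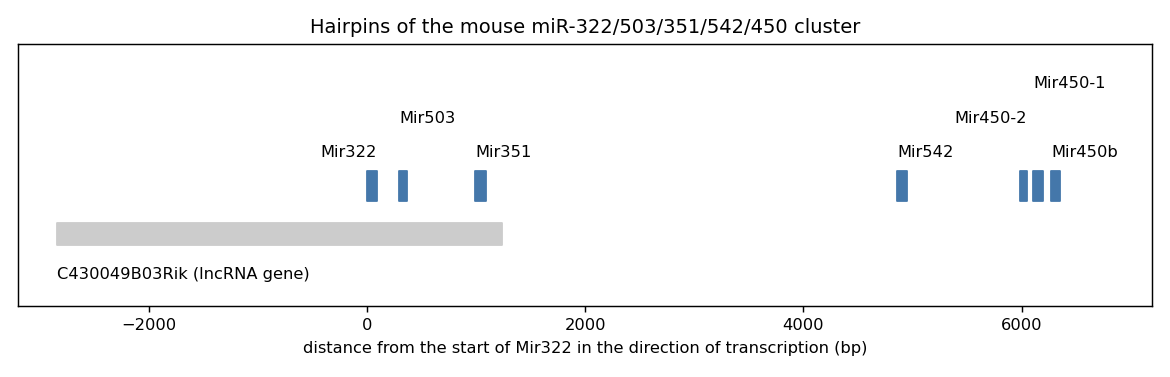
Map of the cluster, with distance in bp from the start of Mir322 on the x axis, hairpins as blue boxes and the annotated lncRNA gene as a grey box. Mir503 starts 295 bp and Mir351 996 bp after Mir322, and Mir542 and the 3 Mir450 hairpins follow between 4862 and 6271 bp.

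The mature sequences show which members can be told apart by their seeds. They are those of RefSeq (GRCm38.p6), 5′ to 3′, with bases 2 to 8 in capitals. The assays were matched to them by name, the unsuffixed name standing for the 5p arm. MiR-322 carries the seed of miR-15a, miR-16 and miR-497, and miR-503 differs from it at the last base of the seed.
miR-322-5p: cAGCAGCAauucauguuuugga
miR-503-5p: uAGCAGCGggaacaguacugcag
miR-15a-5p: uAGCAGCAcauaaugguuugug
miR-16-5p: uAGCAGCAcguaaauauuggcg
miR-497a-5p: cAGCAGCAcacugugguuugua
MiR-351 shares its first 8 bases with both miR-125 miRNAs and 10 of 22 compared positions with miR-125b.
miR-351-5p: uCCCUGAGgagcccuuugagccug
miR-125a-5p: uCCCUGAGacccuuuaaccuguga
miR-125b-5p: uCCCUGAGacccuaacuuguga
The remaining members have seeds of their own within the cluster. MiR-450a and miR-450b are alike in 15 of 22 positions but not in the whole seed.
miR-542-5p: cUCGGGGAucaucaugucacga
miR-542-3p: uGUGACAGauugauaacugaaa
miR-450a-5p: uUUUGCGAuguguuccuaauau
miR-450b-5p: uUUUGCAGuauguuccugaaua

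Each well gives a threshold cycle (Ct), which falls by 1 for each doubling of the template. ΔCt is the Ct minus that of miR-26a in the same sample, and log2 differences are differences of negative ΔCt. Undetermined wells were placed at a Ct of 40. Ct values of different assays were not ranked against each other, because assays can differ in efficiency. From 399 to 466 miRNAs had a Ct in the samples of 24 h and from 493 to 521 in those of 48 h. MiR-375, an islet miRNA, had Ct values from 13.41 to 15.98 in all 15 samples and did not differ between the lines by the test (log2 difference 1.06 ± 0.53, SE; limma, adjusted p = 0.171), nor did miR-7a (-1.24 ± 0.72, SE; limma, adjusted p = 0.229), whereas glucagon and insulin are not among the assays.

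The deposited normalized and non-normalized tables differed for the cluster at 24 h. At 24 h, 55 values of cluster assays were undetermined in the normalized table, and for 31 of these (56.4%) the non-normalized table held a Ct. Over all miRNA assays the share at 24 h was 51.6% (639 of 1238 values). At 48 h the non-normalized table held a Ct for none of 16 undetermined cluster values and for 1 of 432 over all assays. Values below are those of the normalized table unless the other is named. For samples of 24 h the values of the non-normalized table are given beside them where the tables differ.

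**Figure D2:**
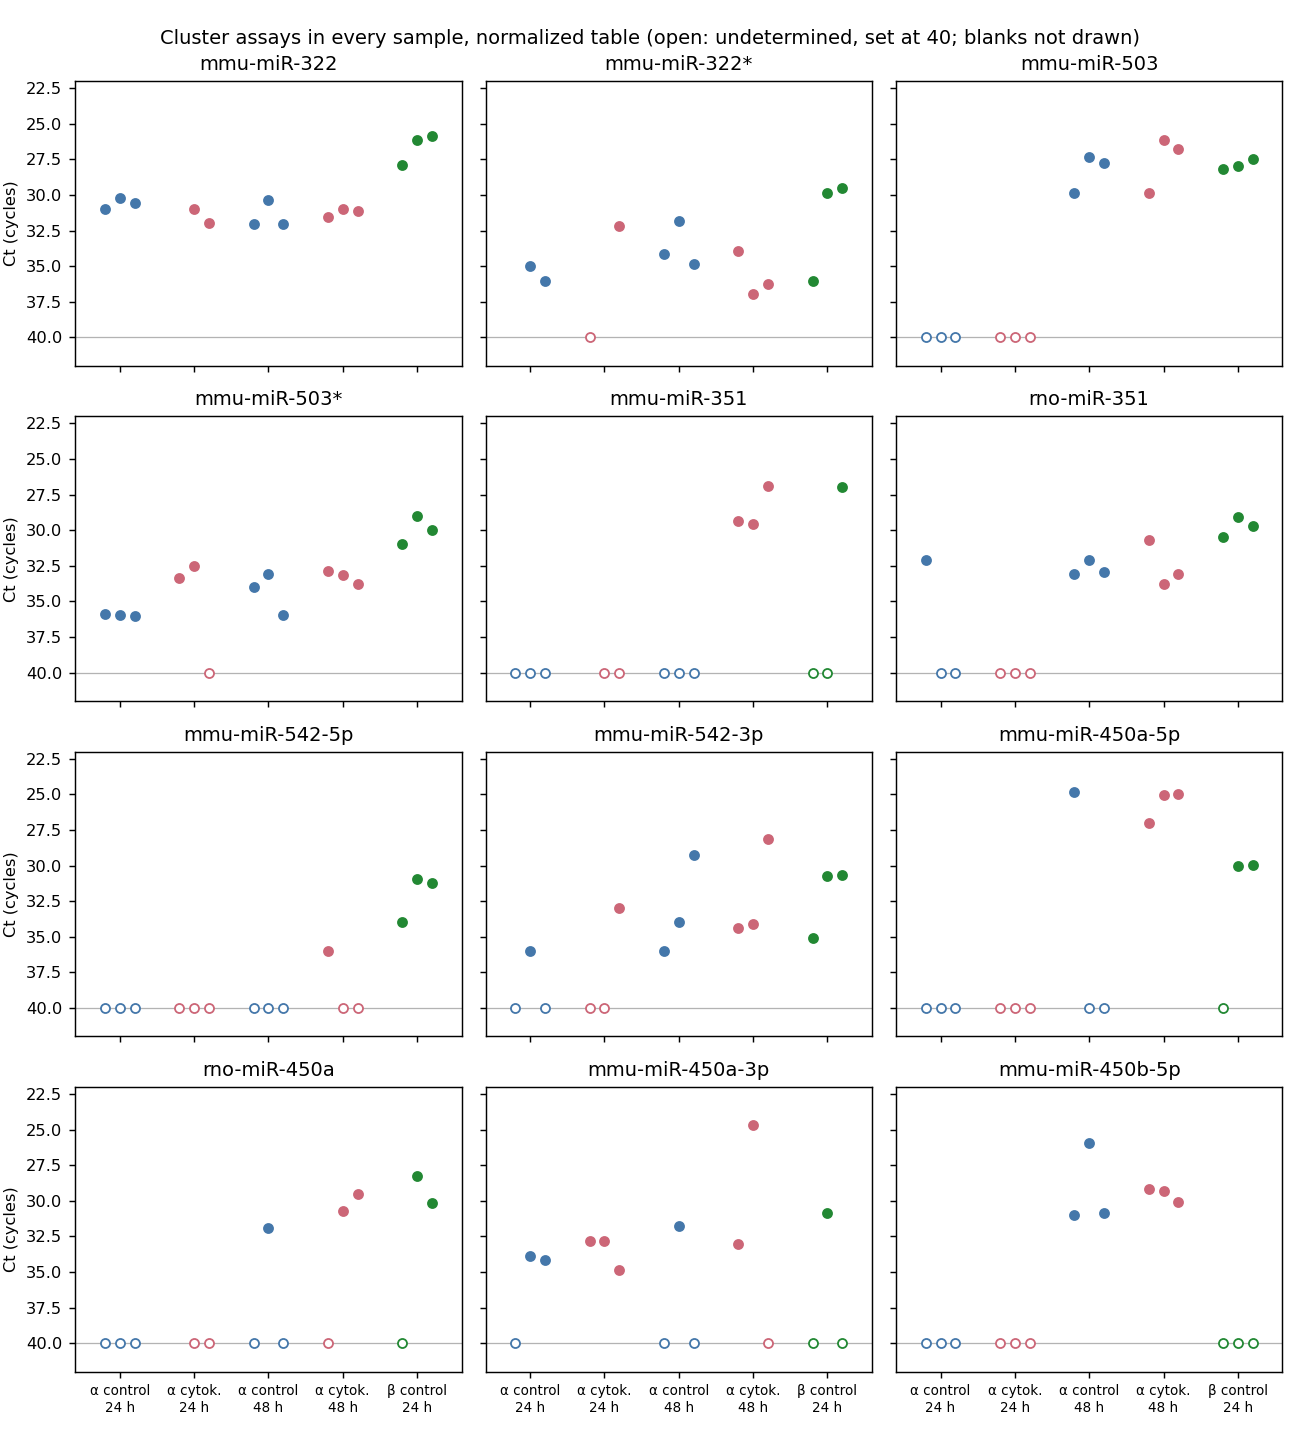
Ct of the 12 cluster assays in every sample (y axis in cycles, inverted so that more miRNA is higher), by condition, with α for αTC1-6 and β for βTC1, one point per replicate. MiR-322 and miR-503* are highest in the 3 βTC1 samples, and mmu-miR-351 has a Ct in all 3 treated αTC1-6 samples of 48 h and in none of the untreated αTC1-6 samples.

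At steady state mmu-miR-322, from the first hairpin of the cluster, was higher in βTC1 than in αTC1-6. In αTC1-6 its Ct was 30.96, 30.20 and 30.59, and in βTC1 27.89, 26.15 and 25.88. The lines did not overlap, also in ΔCt, which averaged 12.5 ± 0.481 for αTC1-6 (SD, n = 3) and 8.42 ± 1.05 for βTC1 (SD, n = 3). The log2 difference was 4.09 ± 0.68 (SE), 17.0-fold (limma, Benjamini-Hochberg adjusted p = 0.00431). It stayed past the threshold under all 14 alternative settings in which it could be tested and without any 1 of the 6 samples. Log2 differences lay between 3.58 and 5.06, with adjusted p-values up to 0.0309 (limma). The 5.06 came with the 48 h controls of αTC1-6, which belong to the contrast that chose the cluster. No support is drawn from that setting. MiR-322 had the same values in both deposited tables. With the replicate number as a block in the non-normalized table, a setting added after seeing the data, it missed the threshold (limma, adjusted p = 0.0759). Replicate numbers did not pair the lines (r of deviations from 0.07 to 0.09).

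The other arm, miR-322*, had a Ct of 34.95 and 36.00 in untreated αTC1-6 at 24 h, with 1 value blank, and of 36.01, 29.86 and 29.52 in βTC1. The first βTC1 replicate lay at the level of αTC1-6, and the log2 difference of 4.28 ± 2.19 (SE) did not pass the test (limma, adjusted p = 0.398). In the non-normalized table that replicate had a Ct of 29.43, and the difference was 6.58 (limma, adjusted p = 0.00192).

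MiR-503* had a Ct of 35.91, 35.94 and 36.04 in αTC1-6 and 30.98, 28.97 and 29.96 in βTC1. The lines were apart by more than the spread within each, with ΔCt of 17.9 ± 0.837 (SD, n = 3) and 11.8 ± 1.32 (SD, n = 3). The log2 difference was 6.13 ± 0.85 (SE), 70.3-fold (limma, adjusted p = 0.00855), but a Ct near 36 is close to the end of the run. MiR-503* passed in 12 of 14 alternative settings (limma, adjusted p up to 0.0630). The 48 h controls of αTC1-6 gave 4.59, a miss given without its p, because they belong to the contrast that chose the cluster. With the replicate number as a block in the non-normalized table, a setting added after seeing the data, the adjusted p was 0.0730 (limma). Here too the block joins samples of the lines that their numbers did not pair.

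The main arm, miR-503, was undetermined in all 3 untreated αTC1-6 samples of 24 h and had a Ct of 28.17, 27.98 and 27.48 in βTC1. With undetermined wells at 40 the log2 difference was 12.27, a value set by that placement and given without its p, because miR-503 entered the fit only through βTC1. The non-normalized table held a Ct of 34.05, 28.97 and 30.99 for the same αTC1-6 samples. From it the difference was 3.61 (limma, adjusted p = 0.0597). Against the αTC1-6 controls of 48 h it was 0.68, given without a p, because these also belong to the contrast that chose the cluster. There miR-503 had a Ct of 29.86, 27.34 and 27.72. The size of the miR-503 difference thus rests on wells that the tables give differently. Its sign was the same in each, but in the normalized table at 24 h the placement at 40 fixed it. Against the 48 h controls the lines overlapped in ΔCt.

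MiR-542-5p was undetermined in all 3 untreated αTC1-6 samples of 24 h in both tables, and had a Ct of 33.98, 30.95 and 31.22 in βTC1. The log2 difference was 8.09 with undetermined wells at 40 and 3.09 with Ct values above 35 set to 35. Both sizes follow from the placement, and no p is given, because miR-542-5p met the filter only through its 3 Ct values in βTC1. MiR-542-5p was also undetermined in all 3 untreated samples of 48 h, and 1 treated sample of 48 h had a Ct, of 36.02.

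For miR-542-3p the tables were in conflict. The normalized table gave αTC1-6 1 Ct (36.03) and 2 undetermined wells against 35.06, 30.72 and 30.69 in βTC1, a log2 difference of 6.67 ± 1.57 (SE; limma, adjusted p = 0.0173). It missed the threshold without βTC1 replicate 2 or 3 or αTC1-6 replicate 1 or 3 (limma, adjusted p from 0.0595 to 0.0652). The non-normalized table gave αTC1-6 30.45, 28.51 and 28.93 and βTC1 26.49, 30.72 and 30.69. There the lines overlapped, and the difference was 0.14 (limma, adjusted p = 0.978).

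The rat-designed assay, rno-miR-351, had a Ct of 30.48, 29.10 and 29.73 in βTC1 and of 32.10 in 1 of 3 untreated αTC1-6 samples of 24 h. Its log2 difference of 7.74 ± 2.68 (SE) missed the threshold (limma, adjusted p = 0.0646). It passed in 4 of 13 alternative settings, for example with Ct values above 35 set to 35 (4.41; limma, adjusted p = 0.0357), and in 1 of 6 fits that left out a sample, the untreated αTC1-6 sample with a Ct (10.83; limma, adjusted p = 0.000658). In the non-normalized table, where 1 untreated αTC1-6 well had a Ct of 10.44 and the other 2 were undetermined, it was 0.52 (limma, adjusted p = 0.987). In untreated αTC1-6 of 48 h all 3 samples had a Ct for rno-miR-351 (33.05, 32.10 and 32.90), below βTC1 in level by a log2 of 3.17. No p is given there, because these controls belong to the contrast that chose the cluster. The mouse-designed assay, mmu-miR-351, had a Ct in 1 βTC1 sample (26.94) and in no αTC1-6 sample of 24 h, and was not tested there. In the non-normalized table every βTC1 sample had a Ct for mmu-miR-351 (37.01, 27.98 and 26.94), as did 1 untreated αTC1-6 sample of 24 h (27.34), and the log2 difference was 5.28 ± 4.48 (SE; limma, adjusted p = 0.525).

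The miR-450 assays had few values at steady state in the normalized table. MiR-450a-5p (30.02 and 29.94) and rno-miR-450a (28.25 and 30.13) each had a Ct in 2 of 3 βTC1 samples and in no untreated αTC1-6 sample of 24 h. MiR-450b-5p was undetermined in all 6, and these 3 assays could not be tested there. The non-normalized table gave miR-450b-5p a Ct of 31.05, 33.63 and 29.55 in αTC1-6, and of 30.95 and 9.77 with 1 undetermined well in βTC1. Its log2 difference was 4.65 ± 7.63 (SE; limma, adjusted p = 0.748). MiR-450a-5p had 30.04, 30.02 and 29.94 in βTC1 and a Ct of 22.33 in 1 αTC1-6 sample, and differed by 4.26 ± 4.95 (SE; limma, adjusted p = 0.635). MiR-450a-3p, present in duplicate wells, never had a Ct in both wells of a sample. Its log2 difference was -0.79 ± 3.11 (SE; limma, adjusted p = 0.888), with groups that overlapped.

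By the adjusted threshold 5 of the 8 cluster assays that passed the filter (a Ct in at least 3 of the 6 samples) were higher in βTC1, beside 17.7% of the 480 assays tested. Of these 5, miR-503 and miR-542-5p had no Ct in αTC1-6 and could enter only by being present in βTC1, so nothing is read from the count. None was higher in αTC1-6, beside 11.9%, nor at an unadjusted p under 0.05 in limma. The 2 members with a Ct in all 6 samples, miR-322 and miR-503*, both passed.

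**Figure D3:**
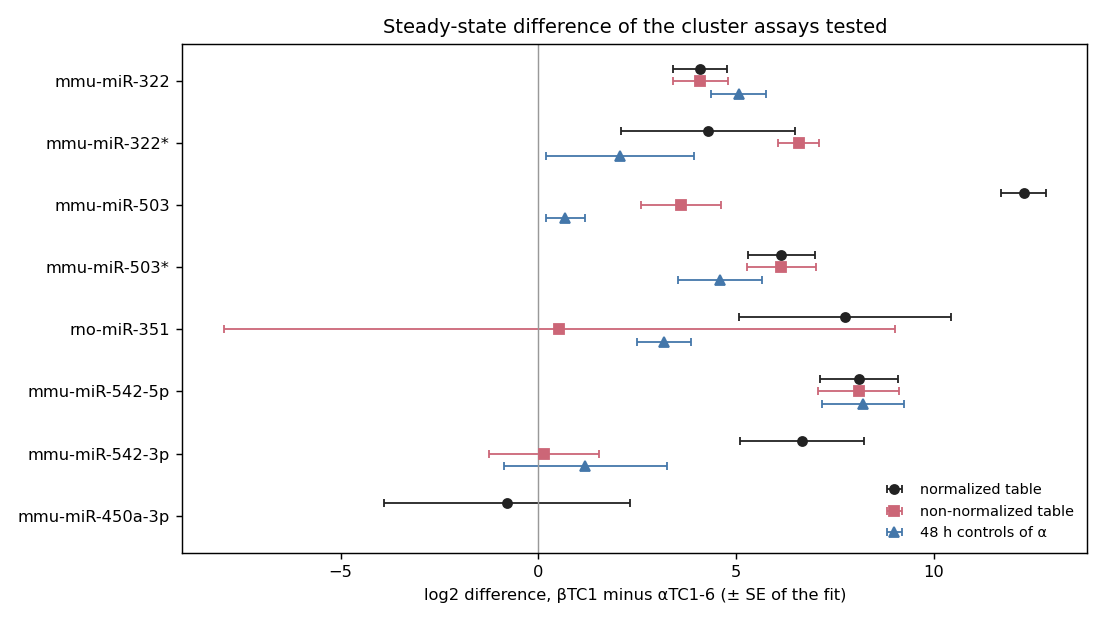
Log2 difference at steady state (x axis, βTC1 minus αTC1-6, with the SE of the fit) for the 8 cluster assays tested, from the normalized table, the non-normalized table and with the 48 h controls of αTC1-6. MiR-322 (4.09, 4.09 and 5.06) keeps its place, whereas miR-503 (12.27, 3.61 and 0.68) and miR-542-3p (6.67, 0.14 and 1.18) do not. MiR-542-5p (8.09, 8.09 and 8.20) had no Ct in any untreated αTC1-6 sample. Its likeness across the settings therefore follows from the placement of undetermined wells at 40.

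At 24 h PT no cluster assay passed the threshold in αTC1-6 in either table. The normalized table allowed a test of 4, with none at an unadjusted p under 0.05 (limma), beside 1 of 445 assays past the threshold (0.225%). The miR-322 Ct was 31.01 and 31.98 in treated cells, with 1 value blank, and its log2 difference from the untreated cells was -1.03 ± 0.55 (SE; limma, adjusted p = 0.963). MiR-503* differed by 0.87 ± 2.22 (SE), miR-322* by 0.18 ± 2.70 (SE) and miR-450a-3p by 2.72 ± 1.55 (SE). These errors leave room for changes of several cycles in the last 3. MiR-146a, a marker of treatment, also missed the threshold at 24 h PT (3.30 ± 0.49, SE; limma, adjusted p = 0.0985). The other marker, miR-155, was at 1.30 ± 1.08 (SE; limma, adjusted p = 0.963). A cluster assay that did not pass may thus still have changed.

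The non-normalized table allowed a test of 9 cluster assays at 24 h PT, of which 0 passed, beside 0 of 518 assays in all (limma, 0%). An unadjusted p under 0.05 was found for 1 cluster assay, miR-542-3p, and for 25 of all assays. MiR-542-3p had a Ct of 28.90, 27.75 and 28.14 in treated against 30.45, 28.51 and 28.93 in untreated cells. Its ΔCt did not overlap, at 9.998 ± 0.196 (SD, n = 3) after cytokines and 11.2 ± 0.255 (SD, n = 3) without, a log2 difference of 1.23 ± 0.33 (SE; limma, adjusted p = 0.680). Of these 6 wells, 4 were undetermined in the normalized table. The others differed as well, with a Ct there of 36.03 against 28.51 in an untreated sample and 32.97 against 28.14 in a treated one.

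MiR-503 had 30.10, 26.71 and 29.23 in treated and, as above, 34.05, 28.97 and 30.99 in untreated cells, a difference of 2.85 ± 1.22 (SE; limma, adjusted p = 0.843). MiR-450b-5p had 28.84, 28.98 and 29.35 against 31.05, 33.63 and 29.55, a difference of 2.55 ± 1.30 (SE; limma, adjusted p = 0.925). MiR-542-3p, miR-503 and miR-450b-5p were each higher in the treated sample in 3 of 3 same-numbered pairs, whereas miR-322, with a Ct of 31.74 where the normalized table has a blank, was lower in 3 of 3 (-0.80 ± 0.49, SE; limma, adjusted p = 0.989). With the replicate number as a block, a setting added after seeing the data, the adjusted p was 0.390 for miR-542-3p and miR-503 and 0.533 for miR-450b-5p and miR-322.

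Of the other members, 5 had few wells with a Ct at 24 h PT even in the non-normalized table. There mmu-miR-351 had a Ct in 1 untreated (27.34) and 1 treated sample (27.59), and rno-miR-351 in 1 untreated (10.44) and 2 treated samples (34.85 and 34.08). MiR-450a-5p had one in 1 untreated (22.33) and 2 treated samples (25.08 and 23.96), rno-miR-450a in 2 treated samples (28.41 and 28.28) and miR-542-5p in 1 treated sample (33.08). None of these 5 assays had a Ct in a treated sample of 24 h in the normalized table. The adjusted p was 0.989 for both rno-miR-351 (-5.97 ± 8.63, SE) and miR-450a-5p (4.62 ± 6.56, SE) in limma. MiR-322* (2.92 ± 2.93, SE), miR-503* (0.87 ± 2.27, SE) and miR-450a-3p (5.88 ± 5.47, SE) had an adjusted p of 0.963 each (limma).

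At 48 h PT the change that chose the cluster was seen with 1 assay. Mmu-miR-351 was undetermined in all 3 untreated αTC1-6 samples and had a Ct of 29.37, 29.55 and 26.87 in the 3 treated samples, the same in both tables. With undetermined wells at 40 the log2 difference was 11.32 ± 0.84 (SE), a size set by that placement, and it was 6.32 with Ct values above 35 set to 35. Of 584 miRNA assays, 2 (0.342%) had a Ct in all 3 treated and in no untreated sample, miR-448 and mmu-miR-351, and 1 (0.171%), miR-220, had the reverse. In the treated cells of 48 h 114 of 584 assays (19.5%) had a Ct in only 1 or 2 of the 3 replicates.

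The second assay for the same miRNA name did not show this change. Rno-miR-351 had a Ct of 33.05, 32.10 and 32.90 in untreated and 30.69, 33.80 and 33.10 in treated αTC1-6 at 48 h. The treated samples lay on both sides of the untreated ones, with a log2 difference of 0.07 ± 1.16 (SE). Rno-miR-351 thus had a Ct in each of the 3 untreated samples in which mmu-miR-351 was undetermined. The sequences that the 2 assays detect are not given in the tables, so it is not known how far they read the same molecule.

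**Figure D4:**
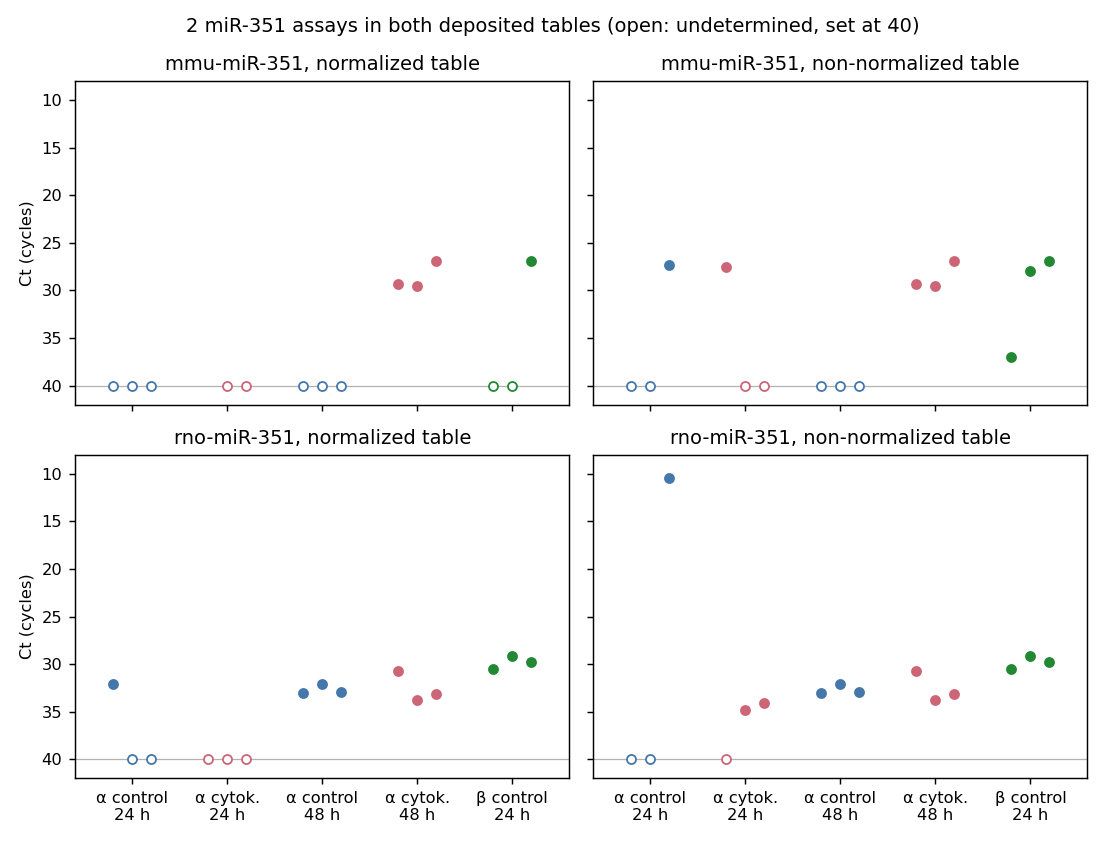
Ct (y axis in cycles, inverted) of the mouse-designed (top) and rat-designed (bottom) miR-351 assay by condition in the normalized (left) and non-normalized (right) table, one point per replicate, open where undetermined. At 48 h mmu-miR-351 has a Ct only in the treated samples (26.87 to 29.55), whereas rno-miR-351 has one in all 6 (30.69 to 33.80), and a single rno-miR-351 value of 10.44 appears in the non-normalized table at 24 h.

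The hairpins next to Mir351 did not share the change of mmu-miR-351 in size. MiR-503, encoded upstream of it, had a Ct of 29.86, 27.34 and 27.72 in untreated and 29.87, 26.10 and 26.80 in treated cells, with groups that overlapped and a log2 difference of 0.63 ± 0.87 (SE). MiR-322 had 32.01, 30.33 and 32.01 in untreated and 31.55, 31.02 and 31.13 in treated cells, a log2 difference of 0.13 ± 0.40 (SE). MiR-503* differed by 0.98 ± 0.96 (SE), with pair differences of 0.60, 0.66 and 1.68, and an SE of 0.33 with the block. MiR-322* differed by -2.18 ± 1.24 (SE), lower in the treated sample in 3 of 3 pairs.

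Downstream of Mir351, miR-542-3p had a Ct of 36.01, 34.00 and 29.25 in untreated and 34.41, 34.12 and 28.17 in treated cells, a log2 difference of 0.76 ± 2.35 (SE). The third replicate was the highest in level in both groups. Within same-numbered pairs the treated sample was higher by 1.11, 0.61 and 0.57, and the SE was 0.22 with the replicate number as a block. MiR-450b-5p, the last hairpin, had 31.02, 25.96 and 30.84 in untreated and 29.21, 29.34 and 30.07 in treated cells, a difference of -0.35 ± 1.19 (SE).

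MiR-450a-5p came nearest to the pattern of mmu-miR-351. It had a Ct of 27.04, 25.05 and 24.97 in the 3 treated samples, but also of 24.84 in 1 untreated sample, the highest level of all 6, while the other 2 untreated samples were undetermined. The log2 difference was 9.17 ± 4.95 (SE), 14.73 without that untreated sample and between 6.15 and 6.64 without either of the others. With undetermined wells as missing it was -1.94, from the single untreated Ct. Rno-miR-450a had a Ct in 1 untreated (31.91) and 2 treated samples (30.75 and 29.51), and its difference was 3.80 ± 3.32 (SE). MiR-450a-3p differed by 4.59 ± 4.49 (SE), and 1 of its treated wells had a Ct of 9.30, far below any other well of this assay.

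The 6 cluster assays with log2 differences between -1 and 1 were miR-322, miR-503, miR-503*, rno-miR-351, miR-542-3p and miR-450b-5p, all with a Ct in each of the 6 samples. The median over all 534 assays was -0.51. Centred on the sample median, 3 of these 6 stayed between -1 and 1, with 1.30 for miR-503, 1.65 for miR-503*, 1.43 for miR-542-3p, 0.80 for miR-322 and 0.32 for miR-450b-5p. The limma threshold was passed by 1 of the 11 cluster assays that met the filter, mmu-miR-351, and by 0.562% of all assays. Since that assay chose the cluster and met the filter only through its treated samples, nothing is read from this count. With the replicate number as a block 0 assays of the whole table passed, and 121 of 532 had an unadjusted p under 0.05. MiR-146a, a miRNA induced by NF-κB that served as a marker of treatment, was higher in the same treated samples by 3.82 ± 0.27 (SE; limma, adjusted p = 0.00458, and 0.0740 with the block). MiR-155, the other marker, was at 1.18 ± 0.59 (SE; limma, adjusted p = 0.664).

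**Figure D5:**
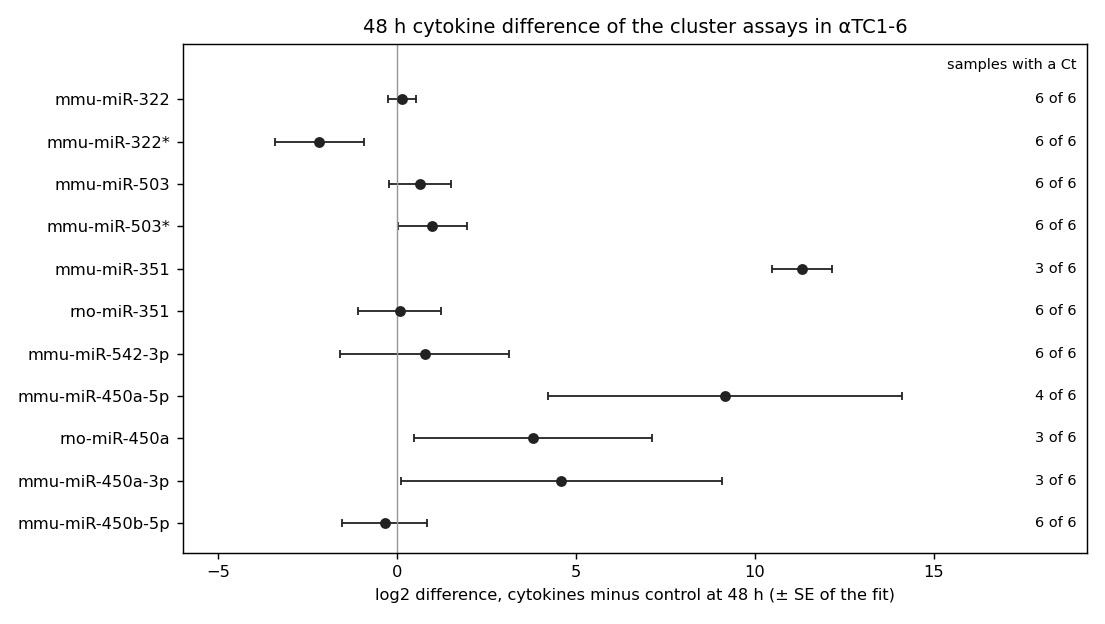
Log2 difference at 48 h PT (x axis, treated minus untreated αTC1-6, with the SE of the fit) for the 11 cluster assays that met the filter, with the number of samples that had a Ct at the right. Mmu-miR-351 stands at 11.32 with a Ct in 3 of 6 samples, and 6 assays with a Ct in all 6 lie between -0.35 and 0.98.

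The untreated αTC1-6 samples of 24 and 48 h differed for several members in the normalized table. MiR-503 and miR-450b-5p were undetermined in all 3 untreated samples of 24 h and had a Ct in all 3 of 48 h. In the non-normalized table both had a Ct in every one of these samples, and the log2 differences (48 h minus 24 h) were 2.93 for miR-503 and 2.03 for miR-450b-5p, against 11.59 and 10.62 in the normalized table. MiR-542-3p changed sign between the tables, from 5.48 to -3.90, and rno-miR-351 from 4.57 to -2.65. MiR-322, with a Ct in all 6 samples and no difference between the tables, was at -0.98 ± 0.45 (SE). The 48 h samples here are also controls of the treatment at 48 h, and these values are descriptions.

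The 5 miRNAs with the seed of miR-322 (miR-15a, miR-15b, miR-16, miR-195 and miR-497), encoded outside the cluster, did not pass the test at steady state (0 of 5 by limma). Their log2 differences lay between 0.15 and 0.94, with a median of 0.67 beside 0.52 over all 480 assays. None passed at 24 h or 48 h PT, and at 48 h 1 of them, miR-15b, had an unadjusted p under 0.05 (log2 difference -0.83 ± 0.25, SE; limma, adjusted p = 0.439).

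Of the 2 miRNAs with the seed of miR-351, miR-125b-5p was higher in βTC1. Its Ct was 29.95, 27.96 and 28.66 in untreated αTC1-6 of 24 h and 24.95, 25.46 and 25.32 in βTC1, with no overlap and a log2 difference of 3.76 ± 0.52 (SE; limma, adjusted p = 0.00197). MiR-125a-5p was at -0.52 ± 0.55 (SE; limma, adjusted p = 0.521). After cytokines miR-125b-5p did not pass the adjusted threshold at 24 h (1.25 ± 0.40, SE; limma, adjusted p = 0.650) or at 48 h (1.43 ± 0.42, SE; limma, adjusted p = 0.436), although its 3 treated samples had Ct values of 27.98, 27.97 and 27.34 at 48 h, all below the untreated 29.99, 28.91 and 28.93.

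The neighbouring X-linked cluster of miR-106a, miR-18b, miR-20b and miR-363 is measured by 8 assays. At steady state 3 of the 6 tested were higher in βTC1, beside 17.7% of all assays, and none was lower, beside 11.9% (limma). Of the 3, 2 are assays of miR-20b. MiR-106a had a Ct of 23.15, 22.94 and 22.61 in αTC1-6 and 20.57, 18.94 and 18.84 in βTC1, a log2 difference of 3.59 ± 0.68 (SE; limma, adjusted p = 0.00733). The rat-designed miR-20b-5p assay differed by 4.99 ± 0.70 (SE; limma, adjusted p = 0.00855) and the mouse-designed miR-20b assay, with a Ct in 1 of 3 αTC1-6 samples, by 12.84 ± 3.37 (SE; limma, adjusted p = 0.0262). The size of the latter rests in part on the placement of undetermined αTC1-6 wells. In the non-normalized table the mouse-designed assay had a Ct in 2 of 3 αTC1-6 samples (27.14 and 27.43). Its ΔCt there was 13.4 ± 7.73 for αTC1-6 and 4.89 ± 0.675 for βTC1 (SD, n = 3). MiR-363 (-2.95 ± 2.93, SE), rno-miR-363* (-2.86 ± 8.30, SE) and miR-20b* (1.33 ± 3.39, SE) did not pass. In the non-normalized table miR-363 had a Ct in 3 of 3 samples of each line. Its ΔCt there was 11.8 ± 0.765 for αTC1-6 and 11.9 ± 0.764 for βTC1 (SD, n = 3). MiR-18b, with a Ct in 1 of 3 βTC1 samples in the normalized table, had one there in 3 of 3, and in 0 of 3 αTC1-6 samples. None of the assays of the neighbouring cluster passed at 24 h or 48 h PT.

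Among other miRNAs of card A, those most like miR-322 across 14 samples were miR-129-3p (Pearson's r of ΔCt 0.97), miR-106a (0.97) and miR-217 (0.97). MiR-217 had a Ct in only 3 samples, and in the non-normalized table miR-183 (0.96) took its place. The 3 βTC1 samples stand apart from all αTC1-6 samples in miR-322, and the part of this separation in the correlations was not tested. The most similar cluster assay was miR-542-5p (0.93), at place 22 of 352 assays. For mmu-miR-351 the most similar other miRNAs were miR-448 (0.76), rno-miR-871 (0.67) and rno-miR-346 (0.67), with most of its 14 values undetermined. In the non-normalized table they were miR-511 (0.63), miR-675-3p (0.57) and miR-100 (0.57). Both rankings include the 48 h samples that chose the cluster. MiR-450a-5p had an r of 0.73 with mmu-miR-351 in the normalized table and of -0.04 over 15 samples in the non-normalized one, and miR-322 had 0.09 and 0.36.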

How the data were processed

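RNA of 15 samples was profiled on TaqMan rodent low density array cards A and B. The authors deposited Ct values (a score in cycles) in a non-normalized table, and ΔCt, log2 values obtained by subtracting the Ct of miR-26a, in a normalized one. The methods name multiple reference genes, yet the deposited ΔCt of miR-26a is 0 in every sample. A table of the authors' fold changes was not used. Replicates are independent biological replicates according to the methods. What could be compared depended on how many wells gave a Ct.

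Ct was recovered by adding the miR-26a Ct (16.975 to 18.983). Undetermined wells were set to 40, blanks left out and duplicate wells averaged. The non-normalized table repeats 1 row for both wells of all 150 duplicated assays. Limma 3.58.1 (R 4.3.3) was fitted to negative ΔCt of the 2 groups compared, over all miRNA assays with a Ct in at least 3 of the 6 samples, without miR-26a and 7 control assays. Tests were two-sided, with Benjamini-Hochberg adjustment within each card and a threshold of 0.05. The fit was tested on simulated data. Tables were made in Python 3.11.15. Sequences and positions are from RefSeq.

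The cluster, its lists and the rule for named miRNAs (all cluster assays, miRNAs with the seed of miR-322 or miR-351, the neighbouring X-linked cluster, miR-146a and miR-155, miR-375 and miR-7a, and the 3 most similar miRNAs of card A) were chosen with earlier results of these data known. Same-numbered treated and untreated samples deviated together (r from 0.26 to 0.48 over 279 assays), whereas the 2 lines did not (0.07 to 0.09), so numbers pair the treated samples only. Alternatives covered normalization, table, filter, undetermined wells, duplicates, adjustment, samples in the fit, block, 48 h controls and each replicate left out. Leaving out wells with a Ct under 12, and the block in the non-normalized table, were added after seeing the data.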

Additional observations from a re-analysis of the deposited data

How the results depend on the processing

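The count of 5 cluster assays higher in βTC1 became 3 with undetermined wells as missing, 2 with a Ct required in every sample and 3 with the 48 h controls, and lay between 4 and 6 under the other settings, with 4 in the non-normalized table, also 4 with the replicate block, and 1 with both (miR-322*), the last setting added after seeing the data. Leaving out each replicate in turn gave 2 to 5, with 2 without βTC1 replicate 2 or 3, when miR-503 and miR-542-5p no longer met the filter. The count of 0 higher in αTC1-6 became 1 with the 48 h controls (miR-450b-5p, log2 difference -10.48) and stayed 0 (0 to 0) when each replicate was left out. MiR-450b-5p had no Ct in βTC1, so it met the filter only through these controls, and its size is set by the placement at 40. In the non-normalized table βTC1 had Ct values of 30.95 and 9.77 for miR-450b-5p. The 48 h controls belong to the contrast that chose the cluster, so nothing is read from the counts with them. At 24 h PT the count was 0 under each setting that tested a member, the replicate block included (no member had a Ct in every sample), and 0 to 0 with each replicate left out.

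At 48 h PT the count of 1 is mmu-miR-351, which chose the cluster, so the settings say nothing of a call. It became 0 with Ct values above 35 set to 35, with undetermined wells as missing, with a Ct in every sample, with 1 fit over all 15 samples and with the replicate block. Undetermined wells as missing, or a Ct in every sample, take mmu-miR-351 out of the fit. Leaving out each replicate gave 0 to 2, with 0 without any treated replicate, since 2 of 5 samples with a Ct do not meet the filter, and 2 without control replicate 1. The 2 assays with a Ct in all 3 untreated samples of 48 h and none of 24 h became 0 in the non-normalized table, and 2 to 3 with each replicate left out.

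Among single assays with a test, signs turned for miR-450a-3p at steady state (0.040 with Ct values above 35 set to 35, 7.44 with undetermined wells as missing, 0.65 without βTC1 replicate 1 and 1.07 without βTC1 replicate 3, in a range of -2.33 to 1.07 with each replicate left out), for miR-322* at 24 h PT (-0.62 for Ct without normalization) and for miR-503* at 24 h PT (-0.40 and -0.37 without cytokine replicate 1 or 2, in a range of -0.40 to 3.38). The cause was not tested for these. Among the descriptions, signs turned with undetermined wells as missing for miR-450a-5p at 48 h PT (-1.94) and, between untreated 48 h and 24 h, for rno-miR-351 (-1.61) and miR-450a-3p (3.93), in the non-normalized table for rno-miR-351 (-2.65) and miR-542-3p (-3.90), and with centring for miR-450b-5p at 48 h PT (0.32). Leaving out a replicate turned the sign of some 48 h differences that lay near 0. The range for miR-322 at steady state was 3.58 to 5.06. A Ct near 36 or an undetermined well limits what can be said of a low level.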
